A study of Mus musculus with 3 samples.

Results

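The Id genes Id1, Id2, Id3 and Id4, which encode inhibitors of DNA binding and differentiation, were followed through the cells of 3 mouse rhabdoid tumours. They were taken by symbol from the gene column of the deposited matrices, where all 4 were found among 31053 genes in each tumour. All 4 also passed the filter on low counts in every comparison below. The study profiled single cells from R26-SHH tumours, which grew inside the central nervous system of mice that were 26, 27 and 87 days old (tumours 1, 2 and 3). Each mouse carried the genotype Rosa 26-CreERT2::Smarcb1flox/flox. Tamoxifen given in early embryonic development activated Cre in unrestricted cell types and inactivated Smarcb1, which encodes a core subunit of the SWI/SNF chromatin remodeller. All 3 samples form a single group with no Smarcb1 wild-type control, so classes of cells were compared within the same tumours and n is 3 tumours unless stated.

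Id proteins have a helix-loop-helix domain but lack the basic region that contacts DNA. They pair with E proteins, the common partners of tissue-specific bHLH factors such as Neurog2, and thereby keep these factors off the E boxes of their target genes. Bone morphogenetic proteins (BMPs) are known inducers of Id1, Id2 and Id3 through the receptor-regulated SMADs, and Id genes are known in the brain from neural stem cells, astrocytes and vessels. Insm1 is a zinc finger factor of newly committed neuronal and neuroendocrine progenitors.

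The genes lie on 4 chromosomes in the GENCODE annotation of GRCm38. Id1 (ENSMUSG00000042745) is at chr2:152736251-152737410 on the plus strand and Id2 (ENSMUSG00000020644) at chr12:25093799-25097140 on the minus strand. Id3 (ENSMUSG00000007872) is at chr4:136143497-136145755 and Id4 (ENSMUSG00000021379) at chr13:48261228-48266026, both on the plus strand. Id4 overlaps the antisense gene A330033J07Rik and the lincRNA Gm49291 on the opposite strand. The 250 bases before the RefSeq start (GRCm38.p6) were searched on both strands for the E box CANNTG, the site of bHLH factors, and for GGCGCC, a GC-rich element that BMP SMADs can bind. Promoters were given for Id2, Id3 and Id4, and none for Id1. Each match is shown 5′ to 3′ on the gene's strand with the motif in capitals.
Id2, E box, 196 bases before the start, chr12:25096271-25096300: aatttgccacccCAGCTGggctctcgcccg
Id2, GC-rich element, 231 bases before the start, chr12:25096306-25096335: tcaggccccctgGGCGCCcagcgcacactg
Id4, GC-rich element, 148 bases before the start, chr13:48260956-48260985: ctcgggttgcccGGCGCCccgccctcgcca
Id3 held neither motif in this window, and Id4 held no CANNTG. Of 32851 mouse promoters of this length, 66.2% held CANNTG and 9.59% held GGCGCC, so a match is a description and not a site. The stretches of Id2 lie inside the GENCODE gene, whose longest transcript begins further upstream.

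The files held 12467, 9485 and 6428 barcodes, and 20911 cells passed the quality and doublet filters. Their median depth was 7154, 2356 and 8094.5 UMIs (unique molecular identifiers, each counting a captured transcript molecule) in tumours 1, 2 and 3. Between 22 and 42 barcodes were shared by any pair of tumours. Cells with at least 2000 UMIs, which were 6518, 3943 and 3000, were each thinned to 2000 UMIs and placed in classes by lists of 10 marker genes that hold no Id gene, Neurog2 or Insm1. The other 2343, 3253 and 1854 cells were too shallow for a class. A cell with few genes of any non-tumour list belongs to the tumour compartment, which had 5079, 2370 and 2586 cells. Of these, 35.4%, 44.3% and 12.1% also had a marker state named progenitor-like (ganglionic eminence genes), neuronal-like, stem-like (neural stem cell and radial glia genes) or mesenchymal-like. A state is a range of a score and not a separate type, and 16.2%, 17.5% and 9.36% of the compartment lay near the score limit.

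Smarcb1, the targeted gene, was at 0.733, 0.812 and 0.655 CPM (counts of UMIs divided by the class total and scaled to 1e6) in the tumour compartment of tumours 1, 2 and 3. It was at 37.7, 37.1 and 56.0 CPM in endothelial cells and at 76.9, 53.2 and 94.5 CPM in mural cells, the contractile cells around vessels. By tumour state, neuronal-like cells had 2.21, 1.41 and 3.40 CPM of Smarcb1 (6, 3 and 4 UMIs) and progenitor-like cells 0, 1.29 and 0 CPM (0, 2 and 0 UMIs). Stem-like cells had 1.95, 2.01 and 0.521 CPM and mesenchymal-like cells 0.219, 0 and 1.47 CPM. Whether some neuronal-like cells kept Smarcb1 was not tested. Cells that passed the astrocyte gate had only 3.66, 11.0 and 6.75 CPM. Within that gate, cells with 3 list genes had 5.09, 1.94 and 1.93 CPM, whereas cells with 5 or more had 0, 44.1 and 62.7 CPM from 20, 36 and 3 cells. The 0 of tumour 1 stands for 137226 UMIs, which allows up to 21.9 CPM at 3 counts. The astrocyte name was therefore not borne out for most of these cells, and they are called astrocyte-marker cells.

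Levels are given as CPM of all UMIs summed per tumour and class. The libraries count the 3′ end of transcripts, so levels are compared between classes of cells for a given gene and not between genes. Intervals cover counting error only. Free RNA in the droplets was not removed, and immune cells, which were at 88.3 ± 9.60 CPM for Id3 and 61.1 ± 45.3 CPM for Id4 (SD, n = 3), are given beside the results as a background.

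Id1 was highest in endothelial cells, with 454, 419 and 233 CPM in tumours 1, 2 and 3. An Id1 UMI was seen in 52.5%, 45.2% and 34.3% of these cells at 2000 UMIs, against 2.46%, 2.11% and 1.94% of immune cells. Mural cells had 76.9, 144 and 76.0 CPM and astrocyte-marker cells 80.6, 121 and 89.4 CPM. The lowest endothelial value was thus above the highest value of every other class. Among the tumour states, stem-like cells had 70.6, 83.6 and 24.99 CPM, progenitor-like cells 67.4, 40.0 and 60.0 CPM, and mesenchymal-like cells 19.5, 44.3 and 96.2 CPM. These 3 states overlapped and had no common order across the tumours. Neuronal-like cells were below all of them with 14.0, 14.1 and 6.80 CPM, and overlapped immune cells, which had 15.4, 8.97 and 5.87 CPM. In the order of mean log2 level, the step from endothelial to mural cells was the only one between neighbouring classes that passed the test (adjusted p = 0.00465, edgeR quasi-likelihood test, adjusted by Benjamini-Hochberg).

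Id2 had another order. Immune cells had the highest mean, with 486, 464 and 261 CPM, and an Id2 UMI was seen in 43.3%, 46.0% and 25.8% of them. Astrocyte-marker cells followed with 198, 392 and 266 CPM, just above immune cells in tumour 3, and stem-like cells with 153, 226 and 63.0 CPM. Progenitor-like cells had 80.3, 105 and 141 CPM, endothelial cells 87.9, 122 and 46.1 CPM, and mesenchymal-like cells 68.8, 89.0 and 69.0 CPM. The classes from stem-like to mesenchymal-like cells overlapped, as did neuronal-like cells with 50.8, 79.7 and 71.4 CPM. Mural cells were lowest with 24.8, 22.8 and 1.85 CPM, from only 10, 3 and 1 UMIs. Immune cells and astrocyte-marker cells were the only neighbours in this order that differed beyond the threshold (adjusted p = 0.00833, quasi-likelihood test of edgeR, Benjamini-Hochberg adjusted).

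Id3 was high in vessels and in most tumour states. Mural cells had 905, 919 and 632 CPM, stem-like cells 693, 786 and 906 CPM, and astrocyte-marker cells 679, 581 and 843 CPM. Mesenchymal-like cells had 563, 617 and 609 CPM, endothelial cells 536, 605 and 464 CPM, and progenitor-like cells 560, 284 and 835 CPM. The values of mural and of stem-like cells lay above all those of mesenchymal-like and endothelial cells, and the other pairs among these 6 classes overlapped. None of the steps between neighbours among them passed the test. Oligodendrocytes, which had too few cells in tumour 3, were lower with 178 and 210 CPM. Neuronal-like cells had 86.1, 126 and 239 CPM and immune cells 92.2, 95.3 and 77.3 CPM. The last 2 classes differed by 0.01 on the log2 scale (adjusted p = 0.986, edgeR), so Id3 in neuronal-like cells was not told apart from the background over the 3 tumours. Within tumours, the counting intervals overlapped in tumour 1 (75.5 to 97.9 against 84.3 to 100.5 CPM), while neuronal-like cells lay above immune cells in tumour 2 (111.0 to 141.5 against 86.3 to 105.1 CPM) and in tumour 3. At 2000 UMIs, 9.39%, 13.8% and 29.3% of neuronal-like cells held an Id3 UMI, against 10.7%, 12.8% and 17.4% of immune cells. The median depths before thinning were 7192.5, 5688 and 15075 UMIs in neuronal-like cells and 8752, 6649 and 9699 UMIs in immune cells.

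Id4 separated the tumour states from the vessels. Stem-like cells had 843, 814 and 284 CPM, progenitor-like cells 730.0, 827 and 165 CPM, astrocyte-marker cells 379, 501 and 386 CPM, and mesenchymal-like cells 468, 305.0 and 349 CPM. Endothelial cells had 34.8, 83.1 and 6.38 CPM and mural cells 44.6, 60.8 and 3.71 CPM, and both were at or below immune cells, which had 80.7, 93.2 and 9.30 CPM. The vascular values are therefore read as background and not as expression. Neuronal-like cells had 125, 234 and 45.0 CPM, which was above immune cells in each tumour, although the step between them did not pass the test (adjusted p = 0.398, edgeR). Tumour 3 had the lowest Id4 of the 3 tumours in stem-like, progenitor-like, neuronal-like, immune, endothelial and mural cells, but not in astrocyte-marker or mesenchymal-like cells.

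**Figure D1:**
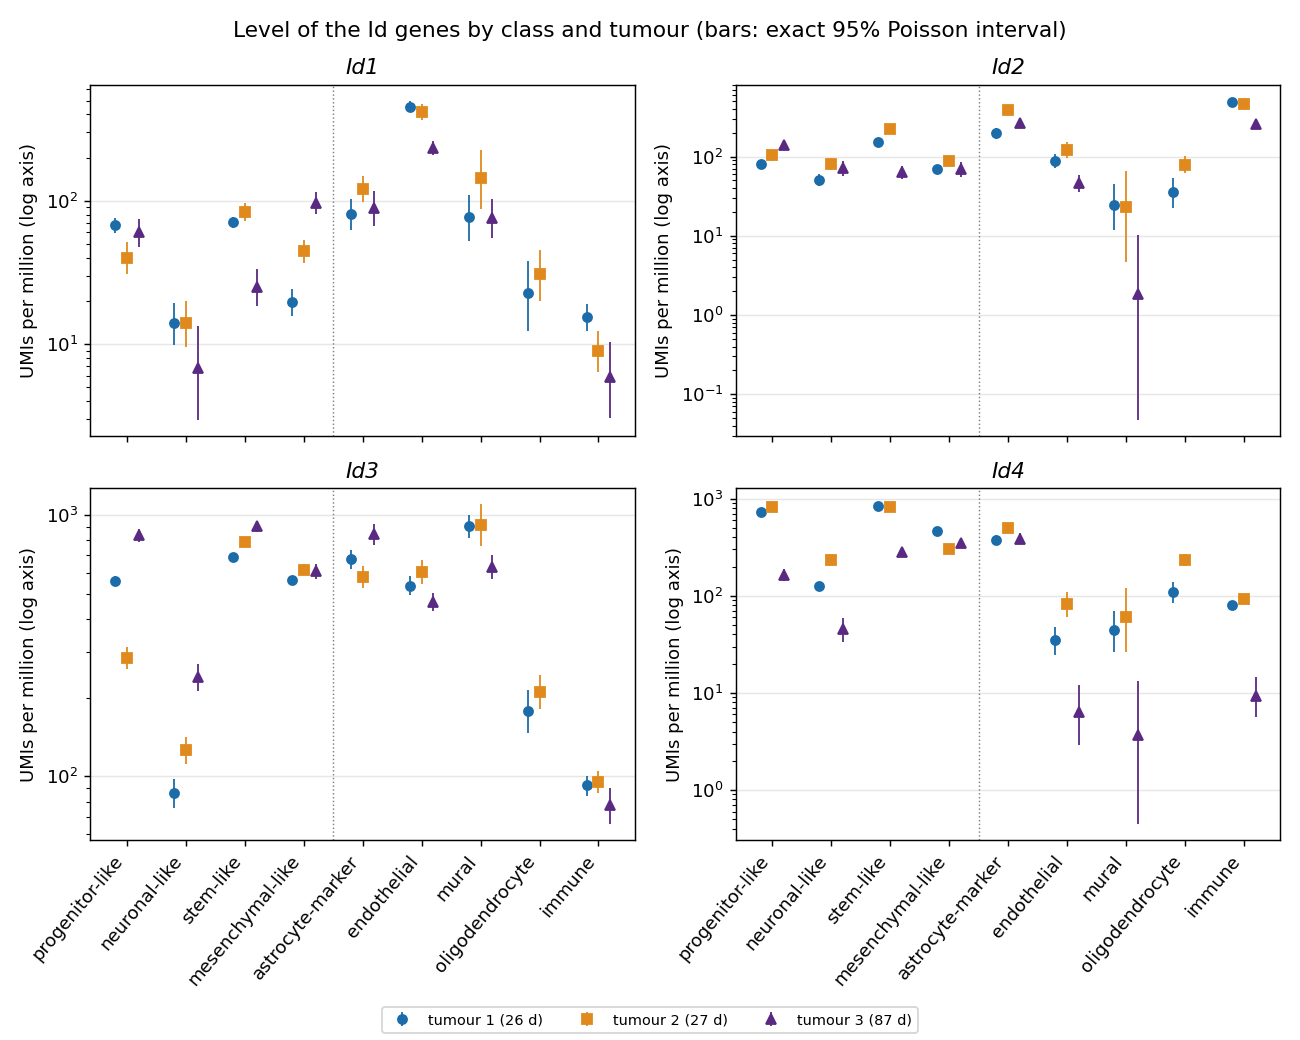
CPM (log axis) of Id1, Id2, Id3 and Id4 in each class of cells, with 1 point per tumour and exact 95% Poisson intervals. Endothelial cells stand above all other classes for Id1 (233 to 454 CPM) and immune cells are highest for Id2 in tumours 1 and 2 (486 and 464 CPM), while neuronal-like cells are the lowest tumour state for Id1 and Id3.

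At 2000 UMIs, 72.1%, 60.9% and 53.3% of neuronal-like cells showed no UMI of any Id gene in tumours 1, 2 and 3. The share was 29.4%, 33.3% and 31.8% of progenitor-like cells and 16.6%, 17.6% and 19.6% of stem-like cells. The 3 states did not overlap in this share, and stem-like cells were lowest in every tumour. Cells with UMIs of exactly 2 Id genes were 4.42%, 8.75% and 9.33% of neuronal-like cells and 29.1%, 32.4% and 16.7% of stem-like cells. In the whole compartment, Id1 and Id2 were seen together in 1.04%, 1.18% and 1.47% of cells, against 0.381%, 0.610% and 0.441% expected from their separate shares. Id3 and Id4 were seen together in 18.0%, 14.1% and 6.15% of cells against 16.1%, 12.2% and 8.42%, which was above the expected share in tumours 1 and 2 and below it in tumour 3. These shares describe cells that share a library, and they carry no test.

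Because the study set progenitors against committed neurons and less differentiated cells, neuronal-like cells were compared with progenitor-like cells first. Id1, Id3 and Id4 fell in neuronal-like cells, and Id2 did not pass the test. That is 3 of 4 members lower, where 5.99% of the 13507 genes tested were lower and 8.83% higher. Id3 fell by 2.00 on the log2 scale (SE 0.29, adjusted p = 1.07e-04, edgeR quasi-likelihood test, adjusted by Benjamini-Hochberg), with differences of -2.79, -1.21 and -1.88 in tumours 1, 2 and 3. Id1 fell by 2.31 (SE 0.52, adjusted p = 0.00462, edgeR), with -2.28, -1.47 and -3.02. Id4 fell by 2.14 (SE 0.46, adjusted p = 0.00323, edgeR), with -2.64, -1.86 and -1.92. Id2 differed by -0.81 (SE 0.35, adjusted p = 0.138, edgeR), with the same sign in 3 of 3 tumours. The call for Id3 held in all 12 alternatives. That for Id1 was lost without tumour 1 (-2.32, adjusted p = 0.0540), without tumour 2 (-2.64, adjusted p = 0.0620) and with classes made by clustering (-2.49, adjusted p = 0.0590). That for Id4 was lost without tumour 1 (-1.87, adjusted p = 0.177) and without the tumour as a block (-2.16, adjusted p = 0.0947), all by edgeR.

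Genes around the Id proteins also differed between these states. E proteins, the partners that Id proteins bind, did not pass the test for any of the 3 genes. Of 11 proneural and neuronal bHLH genes tested, a list that includes Insm1, 6 rose and 1 fell, with a list median of 2.32 on the log2 scale against 0.01 for all genes. Nhlh2, Neurod4 and Nhlh1, which mark early neurons, were the largest of these. Nhlh2 was at 27.2, 11.2 and 203.1 CPM in neuronal-like cells and at 0.741, 0 and 0 CPM in progenitor-like cells, and all 3 genes were highest in tumour 3. Insm1 itself was at 186, 98.9 and 104.5 CPM in neuronal-like cells and at 120, 72.3 and 36.9 CPM in progenitor-like cells. Neurog2 was at 43.1, 8.43 and 232 CPM against 41.0, 23.9 and 54.6 CPM, so its direction was not shared by the tumours.

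Of 6 HES and HEY genes, 3 fell and none rose. Most of this family are bHLH repressors induced by Notch that restrain neuronal differentiation, and Hes6 is an exception that favours it. Hes5 went from 99.3, 92.3 and 264 CPM in progenitor-like cells to 11.0, 18.3 and 30.6 CPM in neuronal-like cells. Hes1 went from 235, 261 and 555 CPM to 70.3, 71.7 and 100.3 CPM, and Hey1 fell by 1.29 on the log2 scale. None of the 7 BMP ligands or 3 BMP SMADs tested passed. Of 10 BMP receptors and co-receptors, Rgmb rose (1.56) and Bmpr1b fell (-1.38). Of 10 BMP inhibitors, 3 fell. Smad6, an inhibitory SMAD, was at 2.96, 2.58 and 3.08 CPM in progenitor-like and 0.736, 0 and 0.850 CPM in neuronal-like cells (-2.45), low levels beside 0.539, 1.42 and 5.38 CPM in immune cells. Fst (follistatin, which binds activins and BMPs) fell by 2.19 and Fstl1 fell by 1.18. 

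None of the 4 Id genes passed the test between stem-like and progenitor-like cells, where 4.57% of genes were higher and 2.17% lower. The log2 differences were 0.12 for Id1 (adjusted p = 0.932), 0.40 for Id2 (0.549), 0.60 for Id3 (0.219) and 0.34 for Id4 (0.715) in the quasi-likelihood test of edgeR with adjustment by Benjamini-Hochberg. Before adjustment only Id3 was past the threshold in edgeR, with a p of 0.0439. Without tumour 3, Id2 was higher by 1.12 (adjusted p = 0.0027, edgeR) and Id3 by 0.90 (adjusted p = 0.0205, edgeR) in stem-like cells. Of 12 alternatives, Id3 passed in 3, with differences from 0.26 to 1.26 over all of them, and Id2 in 1. Insm1 (-2.76) fell in stem-like cells, as did the receptor gene Acvr2b (-0.99) and Hes6 (-1.88). The lists of E proteins, BMP ligands, SMADs and inhibitors gave no call in this comparison.

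Mesenchymal-like cells also gave no call for any Id gene against progenitor-like cells, although 11.9% of genes were higher and 6.44% lower. The log2 differences were -0.08 for Id1 (adjusted p = 0.952), -0.49 for Id2 (0.363), 0.21 for Id3 (0.665) and -0.15 for Id4 (0.872) in edgeR's test, and no unadjusted p was under 0.05. Tumour 3 went against the others for Id4, with 1.15 against -0.61 and -1.31, and without it Id4 was lower (-0.84, adjusted p = 0.0356, edgeR). BMP ligands rose in the same cells, in 3 of 7 genes tested. Bmp2 was at 48.0, 52.8 and 99.8 CPM in mesenchymal-like cells and at 6.18, 1.94 and 0 CPM in progenitor-like cells. Bmp4 was at 33.5, 30.4 and 8.07 CPM against 2.22, 1.94 and 0.770 CPM, and Bmp6 at 4.38, 7.70 and 7.34 CPM against 0, 0 and 0.770 CPM. Of 10 receptor genes Acvr1 rose (0.84) and Acvr2b (-1.13) and Bmpr1b (-1.01) fell, and of 3 SMADs Smad4, the common partner, fell (-0.38). Of the BMP inhibitors, Nbl1 (2.72) and Bambi (1.80), a decoy receptor, rose and Fst fell (-1.72). Insm1 (-2.42) and Neurog2 (-2.19) fell, and so did the E protein gene Tcf4 (-0.53). The mean level of Id3 was nearly the same in the 2 states, 596 ± 29.4 CPM in mesenchymal-like and 560 ± 276 CPM in progenitor-like cells (SD, n = 3), with a much wider spread in the second.

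Endothelial and mural cells were then set against the mean of the 4 tumour states. In endothelial cells Id1 rose by 3.46 on the log2 scale (SE 0.30, adjusted p = 1.74e-09, quasi-likelihood test of edgeR, Benjamini-Hochberg adjusted), with 3.94, 3.53 and 3.09 in the 3 tumours. Id4 fell by 3.23 (SE 0.49, adjusted p = 7.54e-06, edgeR), with -3.37, -2.37 and -4.23. This is 1 member higher and 1 lower, and in so distant a class 27.8% of all genes were higher and 28% lower, with a median of -0.11. Id2 did not differ beyond its error (log2 difference -0.00418, SE 0.30, adjusted p = 1), and Id3 was 0.50 higher without passing (SE 0.22, adjusted p = 0.0565, edgeR), although it passed in 7 of 12 alternatives. Without tumour 3, where Id3 was 0.03 lower, Id3 was 0.80 higher (adjusted p = 0.00141, edgeR). The calls for Id1 and Id4 held in all 12 alternatives.

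In mural cells all 4 Id genes passed the test, 2 in each direction, each the same way in 3 of 3 tumours, where 21.6% of genes were higher and 21.6% lower. Id3 rose by 1.01 (SE 0.22, adjusted p = 7.56e-04, edgeR) and Id1 by 1.39 (SE 0.46, adjusted p = 0.0171, edgeR). Id4 fell by 3.48 (SE 0.59, adjusted p = 5.34e-05, edgeR) and Id2 by 2.56 (SE 0.55, adjusted p = 5.94e-04, edgeR). The median over all genes was -0.20. Only the fall of Id4 held in all 12 alternatives, of which the clusters had mural cells in tumour 1 alone and assume that this sum varies like the other classes. Over these alternatives the difference of Id4 ran from -3.91 to -1.74. The rise of Id1 was called in 8 of 12, with differences from 0.77 to 1.55. It was lost, among others, without tumour 2 (1.23, adjusted p = 0.119, edgeR), and the rise of Id3 was lost without tumour 1 (0.76, adjusted p = 0.0743, edgeR). Gating on all UMIs in place of the thinned ones took the fall of Id2 to 0.50 (adjusted p = 0.379, edgeR).

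Among receptor genes of the BMP9 and BMP10 branch, the tumour states all but lacked Acvrl1 and Eng. Acvrl1, the type I receptor of that branch, was at 187, 203 and 234 CPM in endothelial and 29.8, 30.4 and 76.0 CPM in mural cells, and at most 0.770 CPM in any tumour state. Eng, its co-receptor endoglin, was at 572, 396 and 877 CPM in endothelial cells and at most 1.24 CPM in the tumour states. Of 10 receptor genes, 4 rose and 4 fell in endothelial cells, and 4 rose and 2 fell in mural cells, with Bmpr1b lower in both (-3.05 and -2.77). Of all genes, 27.8% were higher and 28% lower in endothelial cells, and 21.6% each way in mural cells. Counts on such short lists are therefore a description. Smad1, a BMP-regulated SMAD, was at 185, 207 and 266 CPM in endothelial cells and rose by 2.19. Of the 3 SMAD genes 2 rose and Smad4 fell (-0.28). The feedback inhibitors Bambi (4.27), Smad6 (3.08) and Smad7 (2.64) were among 6 of 10 inhibitor genes that rose in endothelial cells, while 3 fell.

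The same shares of all genes stand beside the counts that follow. Of the 7 genes of the ligand list, 3 rose and 2 fell in endothelial cells, among them Bmp4 (1.96) and Bmp7 (-2.97). In mural cells 3 rose, among them Bmp5 (3.60) and Bmp4 (3.30), and none fell. Bmp1 (3.76 in mural cells) is counted there by its name, but encodes a metalloprotease that processes procollagen. Nbl1, a secreted BMP antagonist of the DAN family, was at 585, 471 and 439 CPM in mural cells and at most 68.5 CPM in any tumour state. Heyl was at 161, 144 and 154 CPM in mural cells, and 3 of 6 HES and HEY genes rose and 2 fell. Hes5 was among those that fell (-3.96). In endothelial cells 4 of the 6 rose, with a list median of 1.31, among them Hey1 (1.73), and 2 fell, among them Hes5 (-3.79). All 3 E protein genes fell in mural cells (Tcf12 -1.51, Tcf3 -0.90 and Tcf4 -0.46), and Tcf12 fell (-1.35) and Tcf3 rose (0.37) in endothelial cells.

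In astrocyte-marker cells Id2 rose by 1.57 (SE 0.26, adjusted p = 2.16e-04, edgeR) and Id1 by 1.34 (SE 0.37, adjusted p = 0.0223, edgeR) against the tumour states, each in 3 of 3 tumours. Of all genes 7.57% were higher and 2.63% lower. The Id2 call held in 10 of 13 alternatives and was lost with gates on all UMIs (0.67, adjusted p = 0.228), stricter gates (1.18, adjusted p = 0.0692) and clusters (0.24, adjusted p = 0.814), all by edgeR. These alternatives changed the class itself. Gates on all UMIs put 554, 497 and 330 cells in it, against 97, 126 and 26, and the clusters 51, 74 and 349. Stricter gates left 34, 52 and 5 cells, so tumour 3 fell under the minimum of 20 and only tumours 1 and 2 remained. Id3 was 0.66 higher (adjusted p = 0.0546, edgeR), although it passed in 6 of 13 alternatives. Id4 was 0.40 higher (adjusted p = 0.544, edgeR). Olig1 (3.82) and Olig2 (3.21), bHLH factors of the oligodendrocyte lineage, rose in these cells, and Olig1 was at 111, 152 and 108 CPM. The 10 genes of the stem-like list summed to 13110, 15240 and 8020 CPM in these cells, against 15140, 16790 and 11640 CPM in stem-like cells. Against stem-like cells alone, neither Id2 (adjusted p = 0.152) nor Id1 (adjusted p = 0.524) passed in edgeR. When the gate asked for at least 5 astrocyte genes, an alternative chosen after Smarcb1 had been seen to be low, Id1 differed by -0.01 (adjusted p = 1, edgeR) and Id4 by -1.49 (adjusted p = 0.0710, edgeR). That gate held 20, 36 and 3 cells, so this alternative rests on tumours 1 and 2. Over all alternatives, this one included, the adjusted p of Id1 ranged from 0.00121 to 1, and 6 of 13 gave a call. Leaving out tumour 1 gave 0.0649 and leaving out tumour 2 gave 0.277, with differences near the full value.

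**Figure D2:**
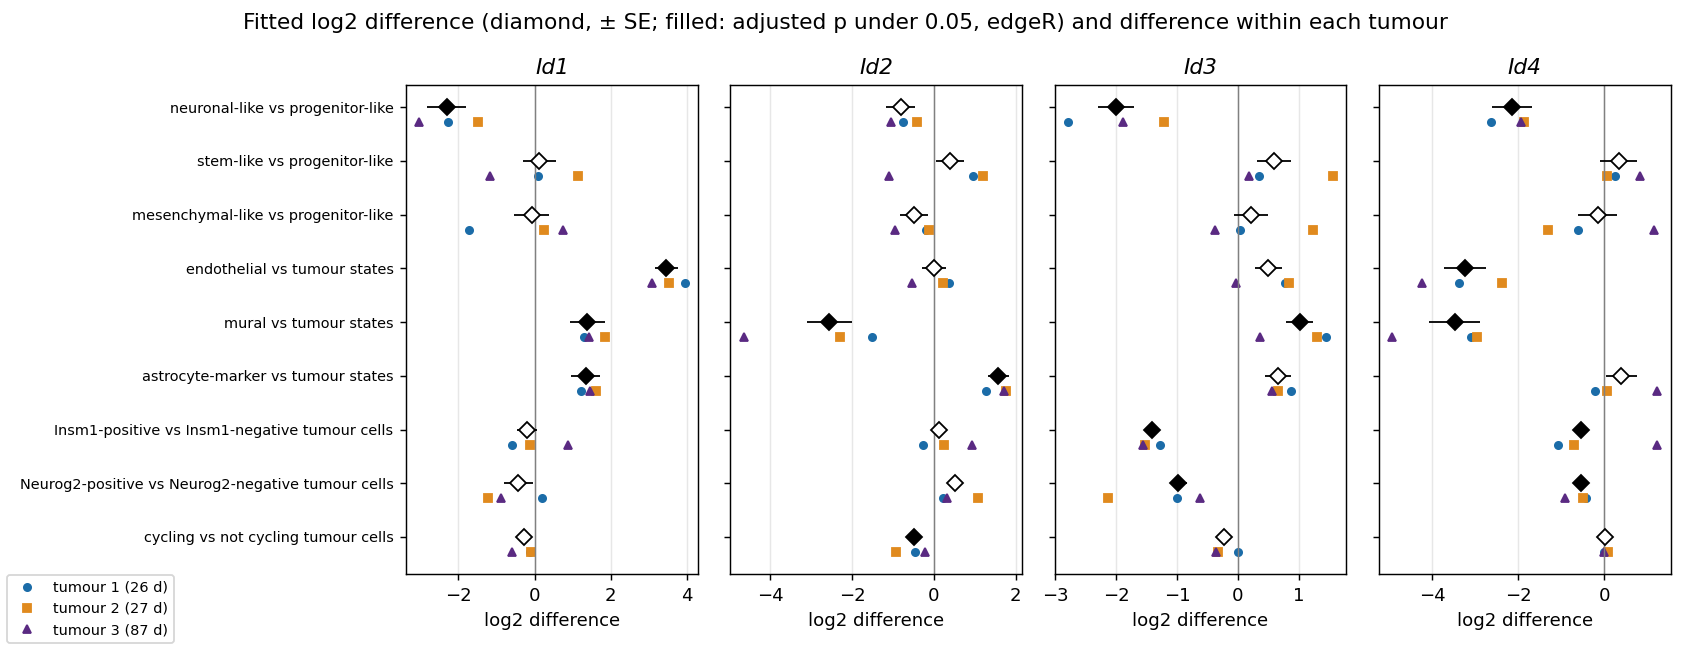
Fitted log2 difference of each Id gene (diamond, with SE; filled where the adjusted p is under 0.05 in edgeR) and the difference within each tumour (coloured points) for the 9 comparisons. Id1 is 3.46 higher and Id4 3.23 lower in endothelial cells, and Id3 is lower in neuronal-like, Insm1-positive and Neurog2-positive cells in 3 of 3 tumours.

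Co-detection with Insm1 and Neurog2 was counted in the tumour compartment at 2000 UMIs per cell, so that all cells had the same depth. Insm1 was seen in 8.76%, 6.67% and 2.36% of the compartment against 0.821%, 2.60% and 0% of immune cells, where the 0 of 155 cells allows up to 2.35% by the exact interval. Neurog2 was seen in 2.36%, 2.32% and 4.29% against 0.328%, 0.650% and 1.29%. A cell without a UMI of either gene can still express it at this depth.

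Id3 was seen less often in cells with an Insm1 UMI in every tumour. In tumour 1, 87 of 445 Insm1-positive cells held an Id3 UMI (19.6%, exact 95% interval 16.0 to 23.6%) against 39.7% of Insm1-negative cells. In tumour 2 it was 26 of 158 cells (16.5%, 11.0 to 23.2%) against 33.4%. In tumour 3 it was 17 of 61 cells (27.9%, 17.1 to 40.8%) against 58.6%. The intervals of positive and negative cells did not overlap in any tumour. The mean difference was -22.6 ± 7.24 percentage points (SD, n = 3, exact two-sided sign-flip permutation p = 0.25, the smallest that 3 tumours can give).

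Id4 did not follow Id3 in tumour 3. It was seen in 28.8% of Insm1-positive against 43.7% of Insm1-negative cells in tumour 1 and in 28.5% against 38.6% in tumour 2. In tumour 3 the order was the opposite, with 23.0% (14 of 61 cells, 13.1 to 35.5%) against 14.3%. The mean difference was -5.48 ± 12.5 percentage points (SD, n = 3, exact sign-flip permutation p = 0.5). Id2 was seen in 8.99% against 9.19%, 18.4% against 11.9% and 18.0% against 9.31%, and Id1 in 3.60% against 4.21%, 5.06% against 4.93% and 11.5% against 4.48%. Neither had the same sign in all tumours.

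Neurog2 gave the same picture for Id3, from fewer cells. An Id3 UMI was seen in 30 of 120 Neurog2-positive cells in tumour 1 (against 38.3% of negative cells), in 6 of 55 in tumour 2 (10.9% against 32.7%) and in 41 of 111 in tumour 3 (36.9% against 58.8%). The mean difference was -19.0 ± 4.97 percentage points (SD, n = 3, exact sign-flip permutation p = 0.25, the smallest possible). Id4 was seen in 32.5% against 42.7%, 29.1% against 38.1% and 7.21% against 14.9%, a mean difference of -8.95 ± 1.26 points with the same exact permutation p. Id2 was seen in 10.0% against 9.16%, 18.2% against 12.2% and 9.91% against 9.50%, hence slightly more often in positive cells of every tumour. Any Id gene was seen in 55.0%, 49.1% and 48.6% of Neurog2-positive against 66.7%, 62.5% and 71.4% of negative cells, with free RNA included in both.

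**Figure D3:**
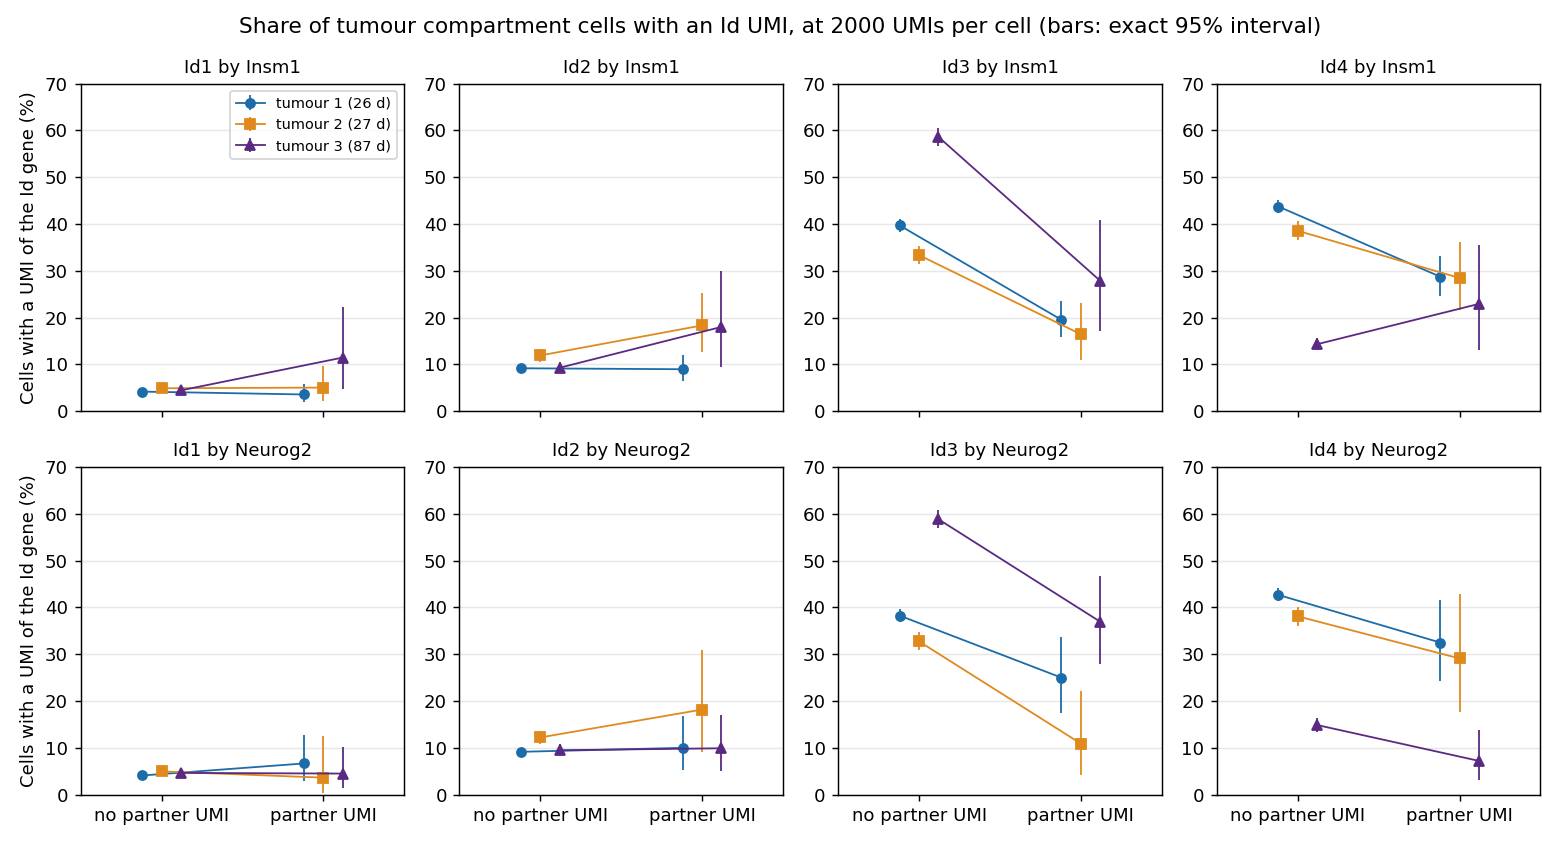
Share of tumour compartment cells with a UMI of each Id gene (%, at 2000 UMIs per cell) without and with a UMI of Insm1 (upper row) or Neurog2 (lower row), with 1 line per tumour and exact 95% intervals. For Id3 all lines fall, with Insm1 from 39.7, 33.4 and 58.6% to 19.6, 16.5 and 27.9%, whereas for Id4 the line of tumour 3 rises with Insm1.

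The sums of the thinned counts were tested in the same way across all genes. Id3 was 1.41 lower on the log2 scale in Insm1-positive cells (SE 0.11, adjusted p = 3.51e-14, edgeR quasi-likelihood test, adjusted by Benjamini-Hochberg), with -1.27, -1.52 and -1.55. Id4 was 0.53 lower (SE 0.17, adjusted p = 0.0477, edgeR), with -1.07, -0.69 and 1.22, so that it was lower in 2 of 3 tumours. The fit draws its spread partly from other genes, so this SE is not the spread of the 3 values. The shares of cells gave an exact sign-flip permutation p of 0.5 for Id4. By the fit, 2 of 4 members were lower, where 4.67% of 11375 genes were lower and 2.73% higher. Id1 (-0.20, adjusted p = 0.772) and Id2 (0.13, adjusted p = 0.787) did not pass in edgeR. The Id3 call held in all 7 alternatives, from -1.56 to -1.12. The Id4 call held in 2 of 7, and without tumour 1 the difference was 0.05 (adjusted p = 0.993, edgeR), and without tumour 2 it was -0.28 (adjusted p = 0.669, edgeR).

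In Neurog2-positive cells Id3 was 0.98 lower (SE 0.13, adjusted p = 3.45e-10, edgeR), with -0.99, -2.13 and -0.62. Id4 was 0.54 lower (SE 0.15, adjusted p = 0.0179, edgeR) in 3 of 3 tumours. Again 2 of 4 members were lower, where 1.22% of 11475 genes were lower and 0.723% higher. Id1 (-0.42, adjusted p = 0.840) and Id2 (0.51, adjusted p = 0.212) did not pass in edgeR. The Id3 call held in all 7 alternatives, from -1.32 to -0.50. The Id4 call held in 1 of them, with adjusted p from 0.0493 to 0.480. Leaving out tumour 1, 2 or 3 gave an adjusted p of 0.135, 0.0503 or 0.145 in edgeR, at differences of -0.68, -0.57 and -0.46.

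Neuronal-like cells make up part of the positive cells, so the shares were counted again without them. Id3 was then seen in 23.4% of Insm1-positive against 41.5% of negative cells in tumour 1, 19.4% against 36.0% in tumour 2 and 26.9% against 59.4% in tumour 3. With Neurog2 it was 28.4% against 40.4%, 11.8% against 35.7% and 40.9% against 59.4%. Within progenitor-like cells alone, 13 of 68 Insm1-positive cells of tumour 1 held an Id3 UMI (19.1% against 39.5%), and 3 of 17 in tumour 2 (17.6% against 29.8%). Tumour 3 had only 3 such cells, of which 2 held an Id3 UMI. Within neuronal-like cells the shares were 4.44% against 11.0% and 10.0% against 14.4% in tumours 1 and 2, and the positive cells lay below the share in immune cells. In tumour 3 the order was the opposite, with 3 of 9 Insm1-positive cells (33.3%, exact 95% interval 7.49 to 70.1%) against 28.8%.

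In Insm1-positive cells, 6 of 9 proneural and neuronal bHLH genes tested rose, with Nhlh2 (2.99), Neurog2 (1.83) and Neurod1 (1.82) among them. Insm1 is on that list and was used to choose the cells. Of 4 HES and HEY genes tested, Hes6 rose (1.17) and 3 fell, among them Hey1 (-1.03) and Hes1 (-0.56). The E protein gene Tcf12 rose (0.38). Of the BMP genes, the ligand Bmp2 (-3.38) and the inhibitors Nog (noggin, -2.32) and Fstl1 (-0.74) fell, and Rgmb (1.40) and Acvr2b (0.57) rose among 8 receptor genes. In Neurog2-positive cells 6 of 10 bHLH genes rose, with Neurod1 (1.88) and Insm1 (1.49) among them, and Neurog2, which was used to choose the cells, is on that list. No BMP ligand, receptor or SMAD gene passed there, 1 of 9 inhibitors fell, and Hes6 (1.09) was 1 of 2 HES and HEY genes that rose.

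The shares were also followed along the number of neuronal list genes seen in a cell. In tumour 1, 41.9% of compartment cells with no neuronal gene held an Id3 UMI, 38.3% with 1 gene, 23.8% with 2, 8.06% with 3, 10.1% with 4 and 6.09% with 5 or more. In tumour 2 the shares were 36.5%, 35.4%, 22.5%, 24.2%, 8.57% and 11.2%. In tumour 3 they went from 59.8% with no gene to 53.6%, 45.2% and 24.0% with 1, 2 and 3 genes, and to 30.4% with 5 or more. The last 2 of these groups had only 25 and 23 cells. Id3 was thus lower at 3 or more neuronal genes than at 0 in every tumour. Id4 went from 46.0% to 15.7% in tumour 1 and from 40.3% to 13.3% in tumour 2, but from 14.8% to 17.4% in tumour 3. Id2 stayed within 5.62 to 11.2% in tumour 1 and 10.5 to 14.3% in tumour 2, and ranged from 2.38 to 21.7% in tumour 3, where groups were small. Insm1 ran the other way, from 6.13% to 29.6%, 4.04% to 16.8% and 2.04% to 17.4%.

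Along the stem-like list the order was reversed. Id3 went from 21.4% of cells with no list gene to 46.5% with 5 or more in tumour 1, from 9.76% to 43.7% in tumour 2 and from 49.3% to 62.4% in tumour 3. Id4 went from 26.2% to 54.8%, 14.6% to 51.0% and 10.7% to 20.05%. Insm1 fell along this list, from 24.3% to 3.80%, 14.6% to 3.28% and 7.14% to 1.38%. Along the progenitor-like list Id3 changed less, from 41.9% to 29.4% in tumour 1, 34.8% to 20.8% in tumour 2, and from 58.0% with no gene to 52.4% with 4 in tumour 3. Along the mesenchymal-like list Id3 went from 35.0% to 48.6% in tumour 1 and from 25.2% to 54.3% in tumour 2, but from 58.9% with no gene to 46.0% with 3 in tumour 3. Id4 went from 39.9% to 28.1% and from 36.3% to 19.6% in tumours 1 and 2, after higher shares at 2 genes (52.0% and 44.8%), and from 12.9% to 36.0% in tumour 3.

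**Figure D4:**
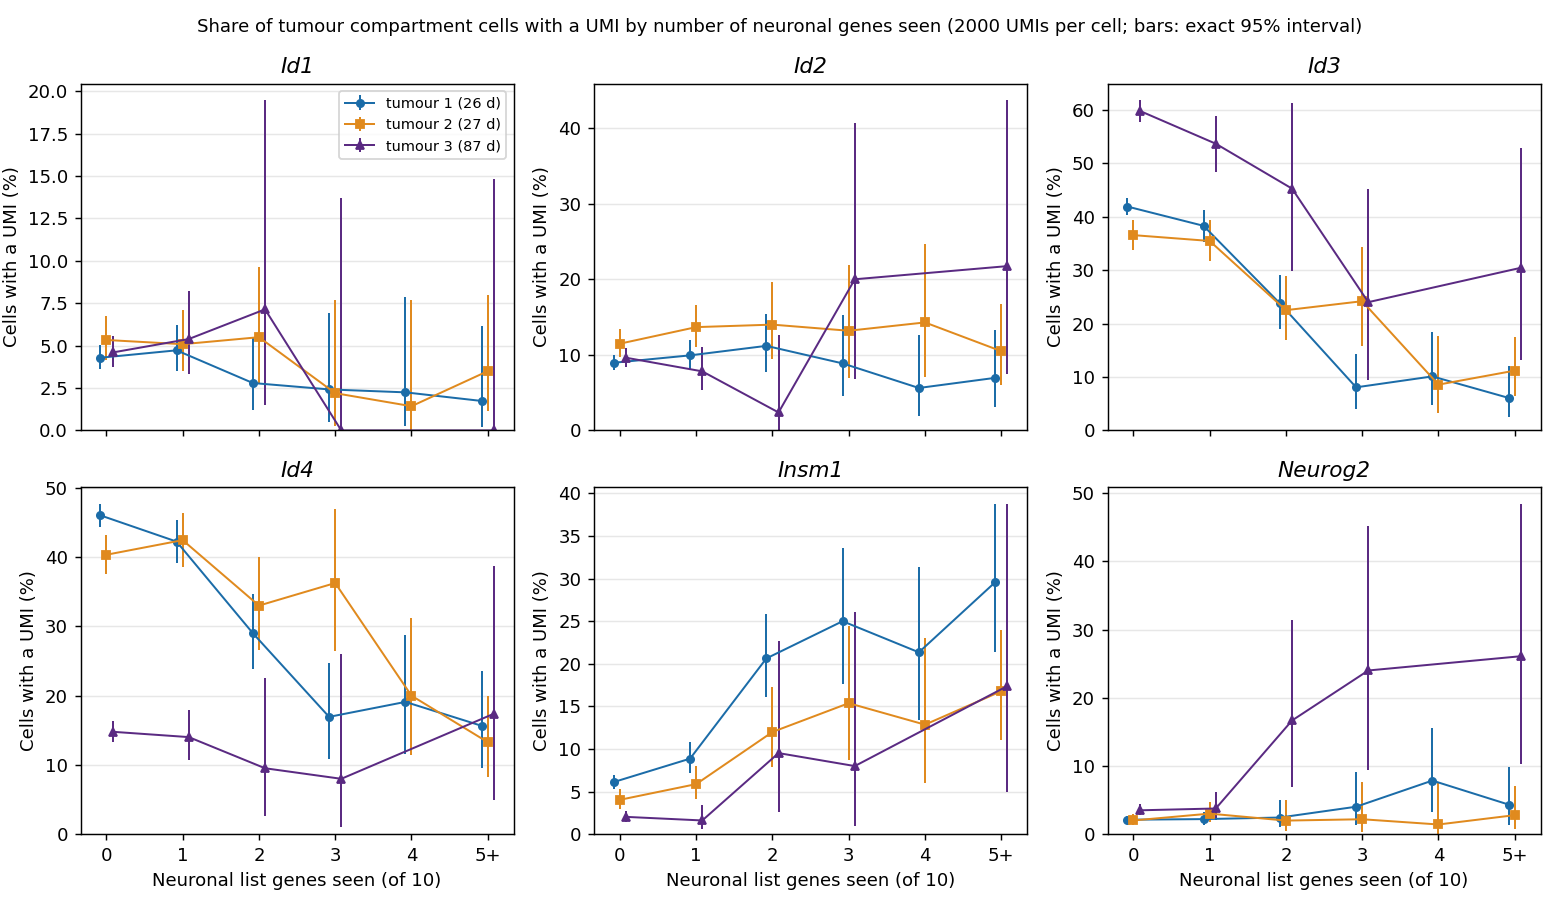
Share of tumour compartment cells (%, at 2000 UMIs per cell) with a UMI of each Id gene, Insm1 or Neurog2 by the number of neuronal list genes seen, with 1 line per tumour and exact 95% intervals. Id3 falls from 41.9 to 6.09% in tumour 1, from 36.5 to 11.2% in tumour 2 and from 59.8 to 30.4% in tumour 3, Insm1 rises in each, and groups under 20 cells are left out.

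Cycling cells were set against the other compartment cells because Id proteins are also known as promoters of cell cycle entry. Id2 was lower in cycling cells by 0.48 (SE 0.14, adjusted p = 0.0140, quasi-likelihood test of edgeR, Benjamini-Hochberg adjusted) in 3 of 3 tumours. It was seen in 6.74% of cycling against 9.51% of other cells in tumour 1, 8.61% against 12.8% in tumour 2 and 9.53% against 9.51% in tumour 3. This is 1 of 4 members lower, where 8.31% of 11511 genes were lower and 10.7% higher. Id1 (-0.28, adjusted p = 0.314), Id3 (-0.22, adjusted p = 0.122) and Id4 (0.03, adjusted p = 0.879) did not pass in edgeR. An Id3 UMI was seen in 39.8%, 29.5% and 54.4% of cycling cells against 37.7%, 32.6% and 58.7% of the others, with no common direction. The Id2 call held in 2 of 7 alternatives, and the difference was -0.19 with all UMIs (adjusted p = 0.0506, edgeR) and -0.07 at 1000 UMIs (adjusted p = 0.856, edgeR). Without tumour 1 its adjusted p was 0.0525 (-0.51) and without tumour 2 it was 0.146 (-0.35). Olig1 (-2.18), Neurod1 (-1.50), Bmp2 (-1.52) and Fst (-0.95) also fell in cycling cells, and the E protein gene Tcf3 rose (0.49).

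Tumour 3, from the oldest mouse, differed from the others in the balance of Id3 and Id4. The compartment held 523, 473 and 967 CPM of Id3 and 567, 508 and 154 CPM of Id4 in tumours 1, 2 and 3. The ratio of Id3 to Id4 UMIs was thus 0.922, 0.932 and 6.30. In progenitor-like cells it was 0.767, 0.344 and 5.07, in neuronal-like cells 0.688, 0.537 and 5.30 and in stem-like cells 0.821, 0.966 and 3.19. Tumour 3 stood above the others in each. Astrocyte-marker cells had 1.79, 1.16 and 2.18, where tumour 3 was highest by a smaller margin. Mesenchymal-like cells were an exception with 1.20, 2.02 and 1.75.

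Immune cells, at their low levels of both genes, had ratios of 1.14, 1.02 and 8.32, close to the compartment of the same tumour. Endothelial cells had 15.4, 7.28 and 72.7 and mural cells 20.3, 15.1 and 170.5, the last from 2 Id4 UMIs. Cells too shallow for a class had 1.07, 0.798 and 6.10. A single tumour came from a mouse of 87 days, so age and the other properties of that tumour cannot be told apart and no test was made. The share of compartment cells with a state was also lowest in tumour 3.

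**Figure D5:**
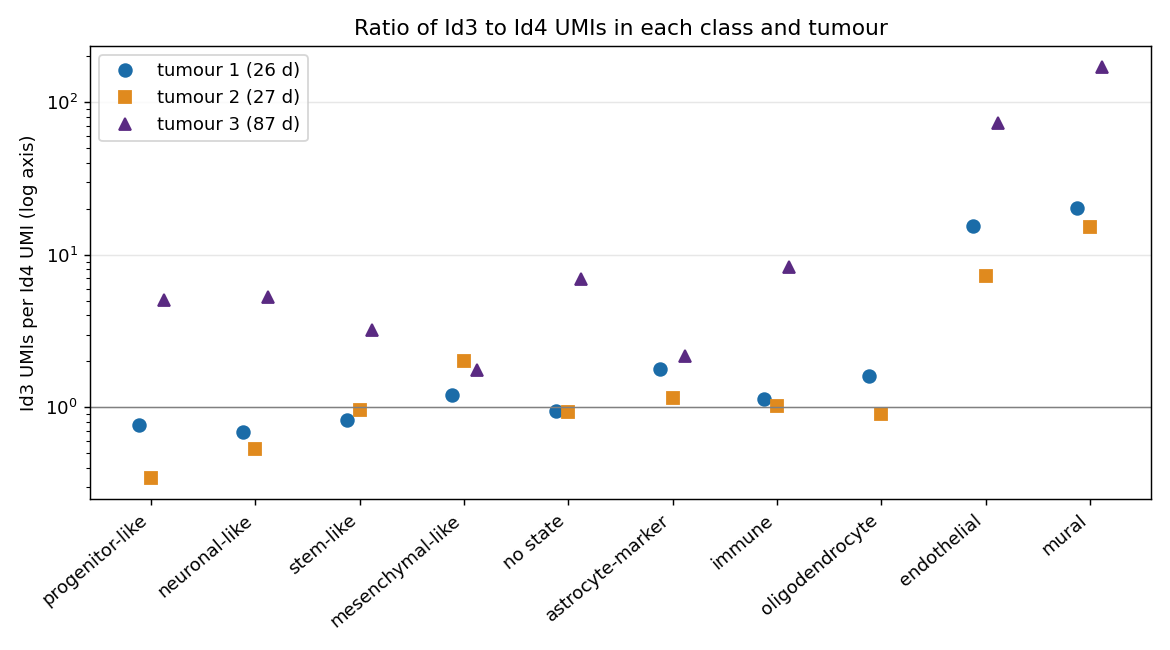
Id3 UMIs per Id4 UMI (log axis) in each class of cells, with 1 point per tumour and a line at 1. Tumour 3 lies above tumours 1 and 2 in progenitor-like (5.07), neuronal-like (5.30), stem-like (3.19) and immune cells (8.32), but not in mesenchymal-like cells, where the 3 ratios are 1.20, 2.02 and 1.75.

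Over the 26 sums of tumour by class, the log2 levels of Id1 and Id3 had a Pearson r of 0.70 and those of Id2 and Id4 of 0.43. Id3 and Id4 had 0.14, Id1 and Id2 -0.14, Id1 and Id4 -0.08 and Id2 and Id3 -0.25. The sums share tumours and libraries, so these values describe the pattern and carry no test. The genes with the pattern most like Id1 were Lrrc58 (r = 0.868), Slc16a1 (0.867) and Grrp1 (0.867). For Id2 they were Pnpla7 (0.875), Cebpzos (0.855) and Gsap (0.855), and for Id3 Rab13 (0.875), Ctdsp2 (0.850) and Fkbp10 (0.847). Id4 had the closest followers, with Fzd10 (0.953), a Wnt receptor, Ston2 (0.933) and Wif1 (0.930), a secreted Wnt inhibitor.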

How the data were processed

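Single cells of 3 R26-SHH tumours, each from a different mouse, were profiled by the authors with 10x 3′ libraries. The deposited values are raw UMI counts of genes in barcodes. They were obtained by the authors by alignment to mm10 in Cell Ranger 3.1.0 and are not normalised. Barcodes were removed below the 5th percentile of genes (never under 200) or above the median plus 3 median absolute deviations of mitochondrial share (at most 20%), which with doublet removal left 8861, 7196 and 4854 cells. Doublets were removed with Scrublet in scanpy 1.11.5 at a fixed rate of 0.8% per 1000 cells, which took 682, 364 and 152 cells. Free RNA was not corrected for, and the removal of non-tumour cells by the study was not applied.

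Classes were gated at 2000 UMIs per cell. A non-tumour type needed at least 3 of its 10 list genes and fewer of every other such list, and the tumour compartment at most 1 gene of each. A state needed a mean z-score above 0.5 and 0.25 above the next. Counts were summed per tumour and class (at least 20 cells) and tested in edgeR 4.0.16 (R 4.3.3) with the quasi-likelihood test, TMM, filterByExpr, terms for class and tumour, and Benjamini-Hochberg adjustment over all genes at 0.05. All 9 classes entered 1 fit. Insm1, Neurog2 and cycling status were tested on sums of the thinned counts, with status called on the same thinned counts. The sums of a tumour come from 1 animal, so tumour was a block. Shares have exact (Clopper-Pearson) intervals and levels exact Poisson intervals at 95%.

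The Id genes, Insm1, Neurog2 and Smarcb1 are always named. Of each pathway list, up to 3 genes were named that passed and moved the same way in 3 of 3 tumours, by size, and 1 gene of the lists is not reported here. The members and lists were chosen with earlier results of these data known. The fits were tested on simulated data. Alternatives were DESeq2 1.42.0, RLE size factors, no filter, no block, other gates or depths, clusters, doublets kept and each tumour left out.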

Additional observations from a re-analysis of the deposited data

How the results depend on the processing

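Under the alternatives 283 values kept their direction and their side of the threshold, 35 lost a call with the same sign, 23 gained a call with the same sign and 35 changed sign, 3 of them with a lost call. The calls for Id3 in neuronal-like, Insm1-positive and Neurog2-positive cells, for Id1 and Id4 in endothelial cells and for Id4 in mural cells held under every alternative run. For the results below the cause of a change was not tested. Values are log2 differences from the same fits, and neuronal-like, stem-like and mesenchymal-like cells stand against progenitor-like cells, and other types against the tumour states.

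DESeq2 gave 0.09 for Id1 and 0.01 for Id4 in mesenchymal-like cells, 0.01 for Id2 in endothelial and 0.71 for Id3 in astrocyte-marker cells, -0.19 for Id4 with Insm1, -0.52 for Id4 with Neurog2 and -0.51 for Id2 with cycling. RLE size factors gave 0.02 for Id2 and 0.52 for Id3 in endothelial cells and 0.71 for Id3 in astrocyte-marker cells. Without the low-count filter Id3 was 0.45 in endothelial and 0.63 in astrocyte-marker cells, and with doublets kept it was 0.50 and 0.66, with Id1 at 0.03 in mesenchymal-like cells. The main fits pair the classes of a tumour by a block. Without this replicate block, Id4 in neuronal-like cells was -2.16 and Id2 in endothelial cells 0.02.

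Stricter gates gave 1.07 for Id3 and -0.19 for Id4 in stem-like cells, 0.74 for Id3 in endothelial cells, 1.30 for Id1 in mural cells, and 0.29, 1.18 and -0.76 for Id1, Id2 and Id4 in astrocyte-marker cells. Gating at 1000 UMIs gave 0.01 for Id4 in mesenchymal-like cells and 0.49 for Id1 and -0.67 for Id4 in astrocyte-marker cells. Tumour 3 had only 5 astrocyte-marker cells with stricter gates and 8 at 1000 UMIs, under the minimum. The astrocyte-marker values of both gates therefore rest on tumours 1 and 2. Gating on all UMIs gave 1.26 for Id3 in stem-like cells, 0.57, 1.05 and -0.74 for Id2, Id3 and Id4 in mesenchymal-like cells, 0.12 and 0.82 for Id2 and Id3 in endothelial cells, 1.09 and -0.50 for Id1 and Id2 in mural cells, and 0.14, 0.67 and 0.78 for Id1, Id2 and Id3 in astrocyte-marker cells. Clusters within each tumour gave -2.49 for Id1 in neuronal-like cells, -0.07 for Id4 in stem-like cells, 0.20 and 0.12 for Id1 and Id4 in mesenchymal-like cells, 0.67 for Id3 in endothelial cells, 0.77 and -2.48 for Id1 and Id2 in mural cells, and -0.13, 0.24 and -0.20 for Id1, Id2 and Id4 in astrocyte-marker cells. Tumours 2 and 3 had no mural cluster there. In tumour 3 the mean log2 difference of the naming list was 0.0598 and -0.009 in the progenitor-like clusters and 0.0287 in the stem-like cluster. Those names thus rest on little, and the astrocyte cluster of tumour 3 held 349 cells against 26 in the gate. The astrocyte gate of at least 5 list genes, chosen after seeing the data, gave -0.01 for Id1 and -1.49 for Id4, from tumours 1 and 2.

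With all UMIs in place of thinned counts, Id2 was -0.29 and Id4 -0.04 with Insm1, Id2 was -0.08 and Id4 -0.47 with Neurog2, and Id1 was -0.40 and Id2 -0.19 with cycling. Thinned to 1000 UMIs, Id2 was -0.71 with Insm1, Id4 -0.64 with Neurog2, and Id2 -0.07 and Id3 -0.33 with cycling. Without neuronal-like cells, Id4 was -0.30 with Insm1, and Id3 was -0.32 and Id4 -0.08 with cycling.

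Leaving out each tumour in turn moved Id1 and Id4 in neuronal-like cells from -2.64 to -2.04 and from -2.36 to -1.87, and Id1, Id2 and Id3 in stem-like cells from -0.35 to 0.54, -0.02 to 1.12 and 0.26 to 0.90. In mesenchymal-like cells Id1, Id3 and Id4 ran from -0.77 to 0.58, -0.18 to 0.59 and -0.84 to 0.32. In endothelial cells Id2 and Id3 ran from -0.20 to 0.31 and 0.36 to 0.80, and in mural cells Id1 and Id3 from 1.23 to 1.55 and 0.76 to 1.42. In astrocyte-marker cells Id1, Id3 and Id4 ran from 1.20 to 1.45, 0.56 to 0.76 and -0.07 to 0.68. With Insm1, Id1, Id2 and Id4 ran from -0.45 to 0.25, -0.09 to 0.50 and -0.93 to 0.05. With Neurog2, Id4 ran from -0.68 to -0.46, and with cycling Id2 and Id4 from -0.60 to -0.35 and -0.01 to 0.06. Depth limits the values of Id2 and Id4 in mural cells, which rest on at most 18 UMIs a tumour.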
